A study of Mus musculus with 10 samples.

Results

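Dlx2 occupancy in the cortex and in the olfactory bulb of mouse embryos at day 16 (E16) was compared through the lists of enriched regions that chromatin immunoprecipitation and sequencing (ChIP-seq) gave in each tissue. The comparison takes every region on chromosomes 1 to 19 and X, which is 6307 regions in the cortex list and 1665 in the bulb list, 7972 of the 25667 regions in the 5 lists of the series. A region counts as shared when it overlaps a region of the other list by at least 1 bp. This divides the regions into 141 bulb regions that met 144 cortex regions, 6163 cortex-only regions and 1524 bulb-only regions. The same antibody to Dlx2 was used on Dlx2 ChIP CX E16, the cortex library, and Dlx2 ChIP OB E16, the bulb library, after fixation in 1.5% formaldehyde. The sources used here do not give strain, sex, genotype or the number of embryos behind a library. Each tissue has 1 library, so there is no replicate error, no test between the tissues and no p-value, and intervals in parentheses are exact Clopper-Pearson 95% intervals that cover counting error only. The read depth is unknown, and a longer list can come from a deeper library as well as from a tissue with more binding. In whole tissue, a larger share of bound cells and stronger binding in each cell cannot be told apart.

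Dlx2 is a homeodomain transcription factor whose domain recognises short A/T-rich motifs around a TAAT core. It is made in progenitors of the ganglionic eminences, the embryonic basal ganglia, and in the GABAergic neurons that leave them. Those neurons migrate into the cortex, where they are a minority among glutamatergic neurons born locally, and along the rostral path into the olfactory bulb, where they become granule and periglomerular interneurons. Glutamatergic neurons of the cortex, and the mitral and tufted cells that project from the bulb, come from Dlx2-negative progenitors and carry genes such as Tbr1, Neurod2 and Tbx21.

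The other 3 lists of the series served to see where the regions recur: basal ganglia at E16 (14732 regions on the same chromosomes), olfactory bulb at postnatal day 3 (P3, 732 regions) and cortex at P3 (2116 regions), each from 1 Dlx2 library. The names of the regions carry a mark for sequencing lane 1 in the E16 cortex, E16 basal ganglia and P3 bulb lists and for lane 2 in the E16 bulb and P3 cortex lists, so lane and tissue cannot be told apart between cortex and bulb at E16. A mark for removed duplicate reads is in the names of every list except that of the P3 cortex, which may thus have been processed differently. Folds depend on how each list was called, so values of different lists are set side by side as each list gives them. A region was given to the protein-coding gene whose body holds its summit, or to the nearest one with the distance outside it.

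At the Dlx5 and Dlx6 locus, 2 starts of Dlx6os1, the noncoding RNA read opposite to Dlx6, lay in regions of both lists. Their upstream sequences are shown because they are promoters met by both lists that hold the homeodomain letters. The upstream sequences of Vldlr, which encodes a receptor for the migration signal reelin, and Msx2, a homeobox gene, follow as the bulb-only promoters highest in the list. The 250 bases before each start are printed 5′ to 3′ on the strand of the gene, from RefSeq (GRCm38.p6, the same build as mm10), with TAATTA in capitals, and likewise TAATTG read on either strand.
Dlx6os1, chr6:6869534-6869783, minus strand: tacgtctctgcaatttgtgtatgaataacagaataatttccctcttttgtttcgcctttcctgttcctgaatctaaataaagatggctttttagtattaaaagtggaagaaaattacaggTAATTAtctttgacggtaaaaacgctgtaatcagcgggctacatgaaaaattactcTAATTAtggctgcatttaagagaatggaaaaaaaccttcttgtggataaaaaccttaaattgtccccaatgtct
Dlx6os1, chr6:6861684-6861933, minus strand: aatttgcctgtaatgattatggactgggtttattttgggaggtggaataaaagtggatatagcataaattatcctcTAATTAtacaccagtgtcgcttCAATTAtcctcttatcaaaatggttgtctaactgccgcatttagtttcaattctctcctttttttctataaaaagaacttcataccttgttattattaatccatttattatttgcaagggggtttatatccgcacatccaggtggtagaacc
Vldlr, chr19:27216234-27216483, plus strand: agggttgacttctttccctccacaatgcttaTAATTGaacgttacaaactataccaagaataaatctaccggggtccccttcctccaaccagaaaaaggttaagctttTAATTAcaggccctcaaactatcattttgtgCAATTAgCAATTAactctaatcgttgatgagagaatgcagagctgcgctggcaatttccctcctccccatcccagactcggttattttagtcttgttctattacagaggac
Msx2, chr13:53472781-53473030, minus strand: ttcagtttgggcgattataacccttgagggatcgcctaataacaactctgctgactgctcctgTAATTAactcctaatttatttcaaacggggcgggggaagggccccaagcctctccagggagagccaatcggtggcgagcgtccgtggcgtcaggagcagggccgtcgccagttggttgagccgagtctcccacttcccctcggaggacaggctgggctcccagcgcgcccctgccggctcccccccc

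At the first Dlx6os1 start the bulb summit lay 105 bp upstream with a fold enrichment of 15.2, the 5th highest region of the bulb list, and the cortex summit 5 bp upstream with 6.59, rank 1767 of the cortex list. Fold enrichment is a ratio the authors' peak caller gives, of the pile-up at a summit over the local background. The basal ganglia region there had a fold of 35.6, the P3 bulb region 13.4 and the P3 cortex region 5.02, so this stretch was in all 5 lists. A value for another list is the fold of the highest-ranked region of that list that overlaps, whose own summit can lie elsewhere in a wide region. At the second start the folds were 8.76 in the bulb, with the summit 273 bp upstream, and 8.67 in the cortex, with the summit 1405 bp downstream of the start. At Vldlr the bulb fold was 11.2, with the summit 114 bp upstream, and at Msx2 it was 11.0, with the summit 180 bp upstream. Neither of those promoters met a cortex region.

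A small part of all promoters met either list. Of 32619 RefSeq windows reaching from 250 bases before a start to 50 after it, 369 met a cortex region (1.13%), 91 met a bulb region (0.279%) and 10 met both. The letters TAATTA, read on either strand, were in 5.25% of all windows (5.01 to 5.50), 3.06% of the 359 that met the cortex list alone (1.54 to 5.42), 7.41% of the 81 that met the bulb list alone (2.77 to 15.4) and 3 of the 10 that met both, 2 of them Dlx6os1 starts. TAATTG, which read on the other strand is CAATTA, was in 8.02% of all windows, 5.57% of those of the cortex alone (3.44 to 8.47), 17.3% of those of the bulb alone (9.78 to 27.3) and 3 of the 10. Among windows met by 1 list, the interval for TAATTG in the bulb alone lay above the share of all windows, and the interval for TAATTA in the bulb alone spanned it. For the cortex alone both intervals spanned it. At least 1 of the motifs was in 12.4% of all windows. That share was 7.80% for the cortex alone (5.25 to 11.1), an interval below it, and 21.0% for the bulb alone (12.7 to 31.5), an interval above it. Median GC content was 53% over all windows, 59.3% for the cortex alone and 57.3% for the bulb alone, with a median of 7, 14 and 18 CpG pairs. Windows of 1 gene with several starts overlap each other, so the counts are not of independent promoters. Pou3f3 and Zeb2, 2 other promoters in both lists, held none of these letters.

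Only a small part of either list was shared. The 141 shared bulb regions were 8.47% of the bulb list (7.18 to 9.91), and the 144 shared cortex regions 2.28% of the cortex list (1.93 to 2.68). Among the shared pairs the summits lay a median of 80.5 bp apart, 79 of 144 pairs within 100 bp and 133 within 500 bp, and in 143 of 144 pairs both summits fell to the same gene. The nearest bulb summit was a median of 431 kb from a cortex-only summit, and the nearest cortex summit 402 kb from a bulb-only summit. A summit of the other list lay within 100 kb for 21.2% of cortex-only and 23.0% of bulb-only summits. Such distances depend on how many regions the other list has and were not compared with random positions. In the bulb list the shared part grew with rank. It was 16.8% in the quintile of regions highest in the authors' −log10 q (13.0 to 21.3), 9.31% in the next and between 5.11% and 5.71% in the other 3. In the cortex list it lay between 1.58% and 2.93% in every quintile, lowest in the highest one. With the cortex list shortened to its 1665 highest regions, 32 regions of each list were shared, 1.92% of each, so the number of shared regions rests on cortex regions below the top of the list.

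**Figure D1:**
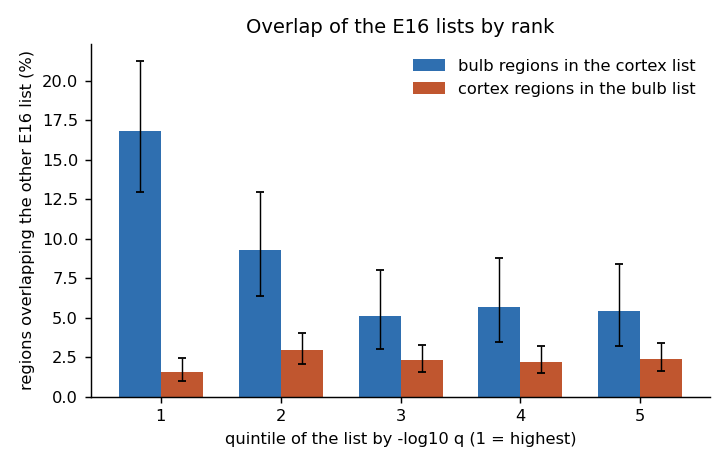
Share of E16 bulb regions that overlap the cortex list (blue) and of E16 cortex regions that overlap the bulb list (orange), by quintile of each list in −log10 q, with exact 95% intervals. The bulb share falls from 16.8% in the highest quintile to 5.41% in the lowest, while the cortex share stays between 1.58% and 2.93%.

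Almost all shared regions were also found in the basal ganglia. The E16 basal ganglia list overlapped 140 of the 141 (99.3%, 96.1 to 99.98), the exception being a region 28.8 kb outside Hdac4, a histone deacetylase gene, which was present in the P3 bulb instead. No shared region was missing from all 3 other lists, and 32 were in all 5 lists. The count of 0 allows a share of up to 2.13%. Here and below, such a limit is 3 divided by the number counted, which approximates the exact interval. For this count the exact interval reached 2.58%. Of the bulb-only regions 70.3% were in the basal ganglia list (67.9 to 72.6), 30.5% in the bulb list of P3 (28.2 to 32.9) and 15.5% in that of the P3 cortex. Of the cortex-only regions 60.6% were in the basal ganglia list (59.3 to 61.8), 4 of 6163 in the bulb list of P3 and 42 (0.681%) in that of the P3 cortex. The shares left in none of the other 3 lists were 39.4% of the cortex-only and 20.01% of the bulb-only regions.

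Seen from the other lists, cortex-only regions met 25.4% of the basal ganglia list, 0.546% of the P3 bulb list and 2.03% of the P3 cortex list. Bulb-only regions met 7.25%, 63.3% and 11.2% of the same lists. Among the regions that overlapped the basal ganglia list, its fold also differed between the 3 classes. The median was 16.01 for 140 shared regions (quartiles 11.1 and 21.1), 7.84 for 1071 bulb-only regions and 5.28 for 3732 cortex-only regions. Regions missing from that list have no such value. Over the whole basal ganglia list the median was 4.55. Within the bulb list, the P3 bulb list held 69.3% of the bulb-only regions of the highest quintile and 10.5% of those of the lowest. Within the cortex list it held 2 of the 1242 cortex-only regions of the highest quintile, and the P3 cortex list held 10 of them. The basal ganglia list held 89.4% of that quintile (87.5 to 91.0) and 43.4% of the lowest.

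**Figure D2:**
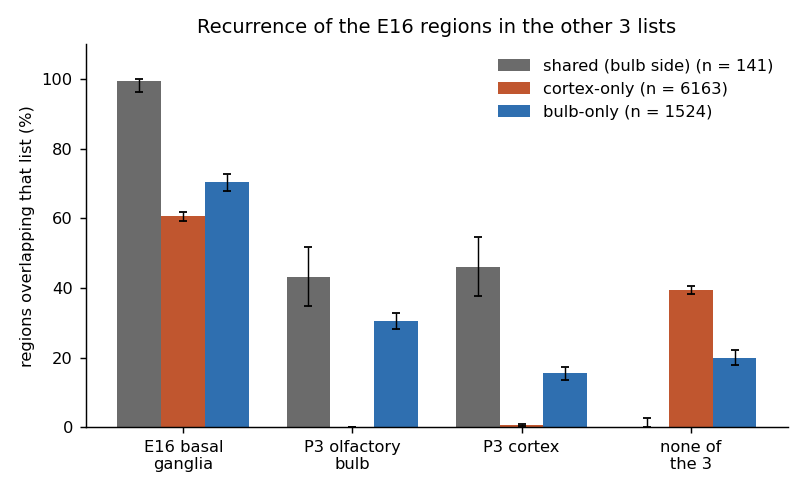
Share of shared, cortex-only and bulb-only E16 regions that overlap each of the other 3 lists or none of them, with exact 95% intervals. The shared regions are at 99.3% in the basal ganglia, and the cortex-only regions are under 1% in both P3 lists.

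The 15 shared pairs with summits within 100 bp and the lowest summed rank lay at genes of neuronal development and others. In Auts2, a regulator linked to neurodevelopmental disorders, the bulb region had a fold of 12.9 and the cortex region 9.73, with summits 25 bp apart at chr5:131869672-131870305 (bulb region) and a basal ganglia fold of 35.95. In Shtn1, which encodes the axon outgrowth protein shootin, the folds were 9.13 and 8.89 with summits 5 bp apart. A region 16.3 kb outside Lmo1, a LIM-only cofactor gene, had 12.5 in the bulb and 7.44 in the cortex and was in all 5 lists. Regions 431 kb from Etv1, an ETS factor of bulb interneurons among other cells (11.6 and 6.94), 157 kb from Foxp1, a forkhead factor (11.5 and 5.95), and 632 kb from Tle4, a corepressor of deep-layer neurons (7.05 and 6.40), were shared far outside their nearest protein-coding gene. The others were in Arhgap15, Cracd, Gse1, Sel1l3, Mvb12b and Bzw2, at the Dlx6 neighbour above, 1.99 kb outside Rpp25 and 312 kb outside Rasgef1b. Their bulb folds ran from 5.11 to 15.2 and their cortex folds from 5.18 to 8.46. By rank in the bulb list alone, the highest shared regions were 151 kb outside Dph6 (17.0), at Dlx6os1, outside Lmo1, in Adk, an adenosine kinase gene (11.5), and in Xylt1, a proteoglycan-synthesis gene (14.1). Over all 79 pairs with summits within 100 bp the median fold was 6.75 in the bulb and 4.78 in the cortex. For the 78 of them in the basal ganglia list it was 16.9 there.

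Ranking the pairs by summed rank alone brought in wide cortex regions whose summits lay further from the bulb summit. At Pou3f3, a POU factor of upper-layer neurons, a cortex region of 5669 bp with a fold of 63.2, the 2nd of its list, met a bulb region of 4.43 whose summit was 2446 bp away. Apc2, a microtubule-binding protein gene, had 28.4 in the cortex and 6.95 in the bulb with summits 1082 bp apart, and Ptprs, a receptor phosphatase gene, had 18.7 and 4.46 with 2388 bp between them. Zeb2, a factor that interneurons need for migration, had 13.9 and 5.31 with 645 bp between them, and Sez6 16.03 and 4.50 with 844 bp. Tcf4, a basic helix-loop-helix factor gene, had 9.76 and 6.34 with 424 bp. Zswim6 (149 bp) and a region 8.25 kb from Aen (263 bp) were among the 15 as well. In such pairs the overlap joins regions whose highest points differ. With summits required to lie within 200 bp, 118 pairs were left, 7.09% of the bulb list.

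Cortex-only regions were often wide and bulb-only regions seldom. The median fold was 5.03 for cortex-only regions in the cortex list and 5.14 for bulb-only regions in the bulb list. A width over 1 kb was found for 25.3% of the cortex-only regions (24.2 to 26.4) and for 4 of 1524 bulb-only regions. The width grew with rank in the cortex list, where 80.9% of cortex-only regions of the highest quintile were wider than 1 kb. The 15 cortex-only regions highest in −log10 q were 2818 to 27627 bp wide with folds of 33.3 to 71.9, and all 15 were in the basal ganglia list and none in either P3 list. The 15 bulb-only regions highest in −log10 q were 516 to 977 bp wide with folds of 8.85 to 20.5. Of these, the basal ganglia list held 11, the bulb list of P3 15 and the cortex list of P3 8.

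Among the highest cortex-only regions was a gene of cortical glutamatergic neurons, beside genes of other roles. Tbr1, the factor of early-born deep-layer neurons, had a region with a fold of 48.5, and Mex3a and Mex3b, RNA-binding protein genes, had 71.9 and 54.5. Kdm6b, a histone demethylase gene (52.2), Foxo6, a forkhead gene (45.0), Mast1, a microtubule-associated kinase gene (47.9), Sema6c, a semaphorin gene (43.1), Dchs1, a protocadherin gene (59.1), and Ptprs (33.3) followed, with Fam171a2, Zfp316, Tmem151b and 2700081O15Rik between 46.2 and 64.3. The basal ganglia fold at these regions ran from 26.7 at Foxo6 to 53.2 at Mex3a, except at Tbr1, where it was 11.1. Another of the 15 lay 47.7 kb outside Polg and covered Mir9-3. The 5 highest cortex-only regions that the basal ganglia list lacked were 368 kb outside Arid1b (39.2), in Emx1, the dorsal telencephalon factor (19.7), in Brd1 (18.4), in Ifnar1 (15.8) and 99.6 kb outside Gm8882 (15.6).

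The highest bulb-only regions had other genes. A region 42.1 kb outside Sema6a, a transmembrane semaphorin gene, had the highest fold of the bulb list at 20.5. Tbx21, the T-box factor of mitral and tufted cells, had a region of 10.8 that the P3 bulb list held at 8.12 and the basal ganglia list lacked. In Pbx3, a homeodomain partner of Meis and Hox proteins, the bulb fold was 12.4, beside 22.7 in the basal ganglia, 9.35 in the P3 bulb and 8.30 in the P3 cortex. Vldlr had 11.2, Pard3b, a polarity protein gene, 14.5, Otud7a 11.5 and Abcb1a, an efflux transporter gene, 12.2. Regions lay 18.9 kb outside Acadsb (17.999), 14.5 kb outside Eapp (16.2), 27.2 kb outside Tmem260 (10.4) and 12.5 kb outside Pdha2 (11.2). Smad2, a transducer of TGF-beta signals, had 1 region inside (12.1) and 1 outside (8.85). Of the 15, 3 stood high in the P3 cortex list, whose names carry no mark for removed duplicates, with folds of 47.5 near Sema6a, 49.1 inside Smad2 and 43.5 in Grip1, a synaptic scaffold gene (12.3 in the E16 bulb list), and they were not in the basal ganglia list.

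Position relative to genes also set the classes apart. Cortex-only summits lay within 1 kb of a gene boundary in 22.2% of cases (21.2 to 23.3), elsewhere inside a gene in 73.4% and outside genes in 4.41%. For bulb-only summits the same shares were 11.0% (9.43 to 12.6), 48.1% and 40.9%, and for shared regions, on the bulb side, 10.6%, 66.7% and 22.7%. Of the bulb-only summits 27.3% were more than 100 kb outside protein-coding genes, against 1.67% of the cortex-only and 20.6% of the shared ones. The genes that held them differed in length, with a median of 46.6 kb for cortex-only, 225 kb for bulb-only and 158 kb for shared summits. Counting boundaries of protein-coding genes alone gave 16.7% for cortex-only, 5.64% for bulb-only and 2.84% for shared summits.

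Along the gene, cortex-only summits were most frequent in the last decile of the gene. Where the strand was known, 24.4% of 4061 cortex-only summits (23.1 to 25.8) lay in the last decile of the gene and 8.20% in the first, and 11.1% lay within 1 kb before the end against 3.57% within 1 kb after the start. Of 514 bulb-only summits 7.59% (5.45 to 10.2) lay in the last decile and 12.1% in the first, with 2 within 1 kb before the end. Of 69 shared summits, 6 were in the last decile and 8 in the first. In genes over 20 kb the last decile held 26.8% of the cortex-only and 7.82% of the bulb-only summits. The cortex-only share varied little with rank, from 22.1% to 27.6% over the quintiles, and was 24.2% for regions over 1 kb wide and 24.5% for the others. Basal ganglia regions met by the cortex list and not by the bulb list had 23.1% in the last decile, those met by the bulb list and not by the cortex list 7.14%, and those met by neither 11.5%.

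**Figure D3:**
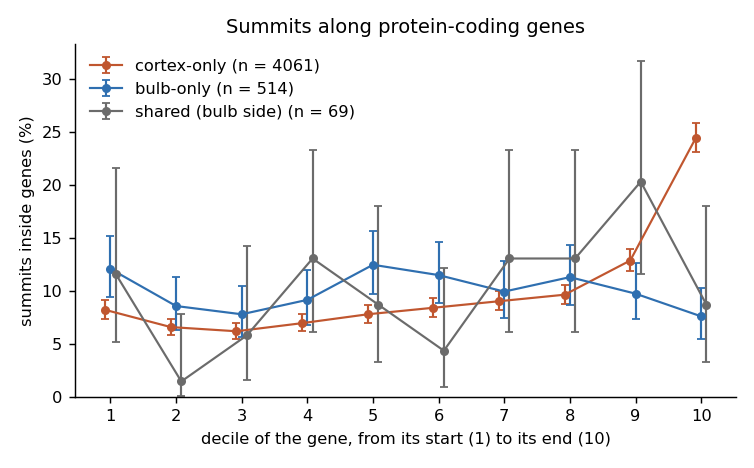
Summits inside protein-coding genes of known strand by decile of the gene from start to end, as a share of each class, with exact 95% intervals. The cortex-only share reaches 24.4% in the last decile, where the bulb-only share is 7.59%.

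Cortex-only regions often lay several to a gene. Of 5340 cortex-only summits inside protein-coding genes, 39.8% lay in 237 genes with at least 5 of them, and 60 genes had at least 10. Tcf4 had 88, Nfib 43, Ttc28 36, Gse1 31, Tnrc18 28, Zeb2 27, Bcl11a 24, Nfix 23 and Meis2 22. Nfib and Nfix are nuclear factor I genes, Bcl11a and Zeb2 zinc finger genes and Meis2 a homeodomain gene, all active in forebrain neurons. The folds at their highest regions ran from 12.1 in Ttc28 to 42.6 in Nfix. Of the bulb-only regions, 2 genes held 5 or more, Tex14 with 6 and Cdk14 with 5. Auts2, Dgkb, Lsamp and Ntm had 4 each, and Btbd9, Cacna1c, Foxp2 and Grid1 had 3 each. Lsamp, an adhesion protein gene, spans 2197 kb.

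**Figure D4:**
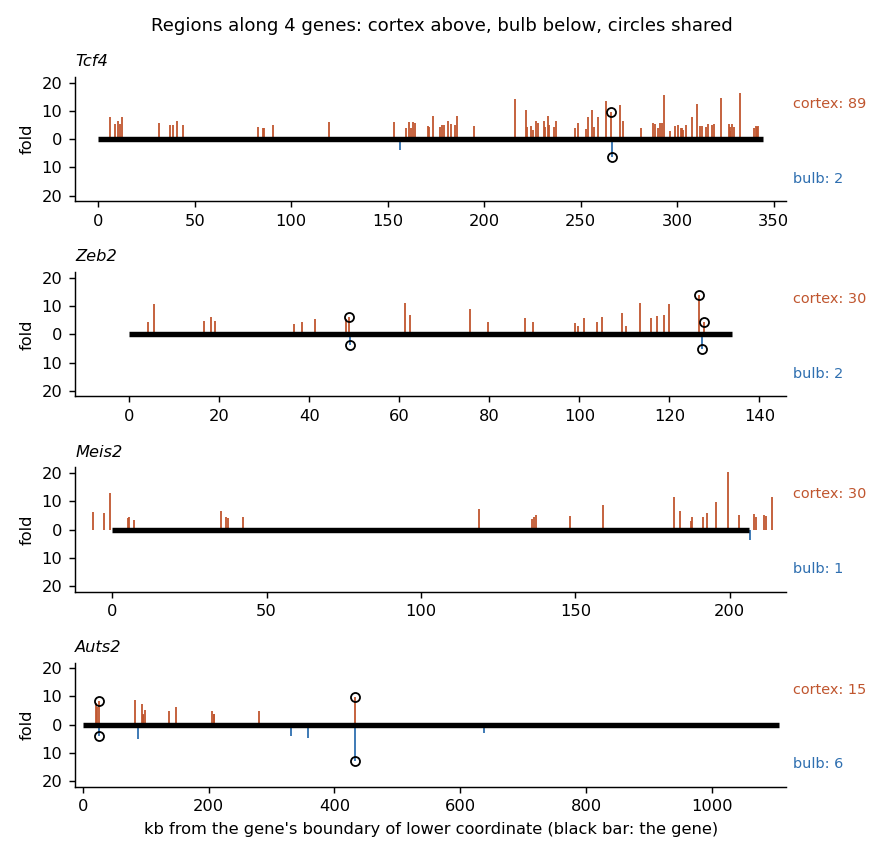
Summits along Tcf4, Zeb2, Meis2 and Auts2 and 10 kb around them, with fold enrichment drawn upwards for the cortex and downwards for the bulb, against kb from the boundary of lower coordinate. Cortex regions number 89, 30, 30 and 15 and bulb regions 2, 2, 1 and 6, and circles mark the shared ones.

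Counted by gene, 3722 of 21631 protein-coding genes (17.2%) had a cortex summit within the gene or 10 kb around it, and 785 (3.63%) had a bulb summit. Both lists met 279 genes (1.29%), which is 35.5% of the bulb genes and 7.50% of the cortex genes, and 97 of the 279 had a shared region. In the other 182 the nearest cortex and bulb summits were a median of 17.2 kb apart. The cortex list alone met 3443 genes (15.9%) with a median length of 17.3 kb, that of all genes being 17.3 kb as well, and the bulb list alone met 506 genes (2.34%) with a median length of 123 kb. A long gene has more room for a summit, and neighbours share a window, so these shares are the background for the lists below, which were drawn up by function and are not independent of each other. Over the 237 distinct members of the 18 lists, 101 had a cortex summit, 58 a bulb summit and 32 both.

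Of the 6 Dlx genes, Dlx1, Dlx2, Dlx5 and Dlx6 had regions in both lists and Dlx3 and Dlx4 in neither. Between Dlx1 and Dlx2, which are read towards each other, the bulb region highest in fold, 10.6 at chr2:71535891-71536580, overlapped a cortex region of 4.22, with summits 39 bp apart. A further pair downstream had 5.74 in the bulb and 5.86 in the cortex, and the other, inside Dlx1, 5.90 and 7.70. Dlx2 itself held a cortex-only region of 12.8 and 3268 bp, and the start side of Dlx1 a bulb-only region of 5.86. At Dlx5 the cortex-only region of the gene body had 10.6, and a bulb-only region 4.35 kb from the lower boundary had 7.57. Shared regions thus stood beside regions of 1 list alone at both loci.

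Among 7 genes of GABA synthesis and transport, 4 had a cortex and 4 a bulb summit (57.1% each). The shares of all protein-coding genes were 17.2% in the cortex list and 3.63% in the bulb list. Gad1, which encodes a GABA-synthesising enzyme, had a bulb region of 8.18 that overlapped 2 cortex regions of 4.57 and 5.00, beside 2 cortex-only regions up to 8.22. Gad2, the other synthesising enzyme, had 6.29 in the cortex and 6.75 in the bulb, with no overlap. Slc32a1, the vesicular GABA transporter gene, had 4 cortex regions up to 12.6 and no bulb region. Abat, which encodes the enzyme that breaks GABA down, had 2 bulb regions up to 6.62 and no cortex region. Slc6a11 and Slc6a13 had none.

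Of 33 transcription factors of the GABAergic lineage, 16 had a cortex summit (48.5%) and 14 a bulb summit (42.4%). The shares of all protein-coding genes were 17.2% and 3.63%. The basal ganglia list met 32 of the 33, against 26.7% of all protein-coding genes. Both E16 lists met 9 of the factors. Those with a shared region included Sp9 (16.5 in the cortex and 4.18 in the bulb, each the fold of the gene's highest region in that list, shared or not, as for the genes that follow), Zeb2 (13.9 and 5.31), Foxp1 (6.70 and 4.62), Foxp2 (4.78 and 6.95) and Tshz2 (3.53 and 6.53). Meis2 (20.4 and 3.59), Sox6 (8.68 and 8.20) and Npas3 (7.16 and 4.87) had regions of both lists that did not overlap. The cortex list alone met Nr2f1, a nuclear receptor of the caudal eminence (48.7), and Sp8 (9.69), among others. The bulb list alone met Pbx3 (12.4), Npas1 (7.77) and Meis1 (6.30) as its highest. Gsx1, Gsx2, Nkx2-1, Lhx8, Prox1, Isl1, Six3, Vax1, Tshz1, Sall3 and Etv1 had no summit within 10 kb in either list.

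The cortical glutamatergic list had the most members met by the cortex list alone, 18 of 25. Of the 25 members, 23 had a cortex summit (92%), 5 a bulb summit (20%) and 5 both. Both shares stood above those of all protein-coding genes, 17.2% in the cortex list and 3.63% in the bulb list. Pou3f3 alone had a shared region. Neurod2, a basic helix-loop-helix factor of glutamatergic neurons, had 49.1 in the cortex, Tbr1 48.5 and Fezf2, the factor of subcerebral projection neurons, 34.0, without a bulb summit. Lhx2 had 33.1 over a region of 18924 bp, and Bcl11b 21.4, also in the cortex alone. The E16 basal ganglia list met 20 of the 25 members, against 26.7% of all protein-coding genes. Tbr1, Neurod2, Fezf2, Lhx2 and Bcl11b were among those it met. Emx1 with 3 cortex regions and Slc17a7, the vesicular glutamate transporter gene, with 2 had no basal ganglia summit. Neurog2 and Id2, also met by the cortex list, lacked one too. Cux1 (5.00 in the cortex and 5.11 in the bulb), Cux2 (4.56 and 5.93) and Sox5 (5.67 and 4.66) had separate regions of both lists. Neurog1 and Rorb had none.

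The ubiquitous genes were met by the cortex list and not by the bulb list. Of 15 genes active in every cell, 9 had a cortex summit, among them Gapdh (27.1), Tubb5 (24.3) and Hsp90ab1 (21.2), and none a bulb summit, a count of 0 that allows a share of up to 20%. All 9 had a basal ganglia summit. Their cortex share (60%), like that of the glutamatergic genes, stood above the 17.2% of all protein-coding genes. The part of this share in the other cortex counts was not tested. The bulb count of 0 of 15 cannot be told apart from the 3.63% of all protein-coding genes. Notch and neurogenesis genes showed 9 of 15 in the cortex, led by Lfng (10.4), Numbl (9.98) and Hes5 (8.67), and 1 of 15 in the bulb, Notch1, whose bulb region (4.11) did not overlap its 8 cortex regions (up to 5.86).

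**Figure D5:**
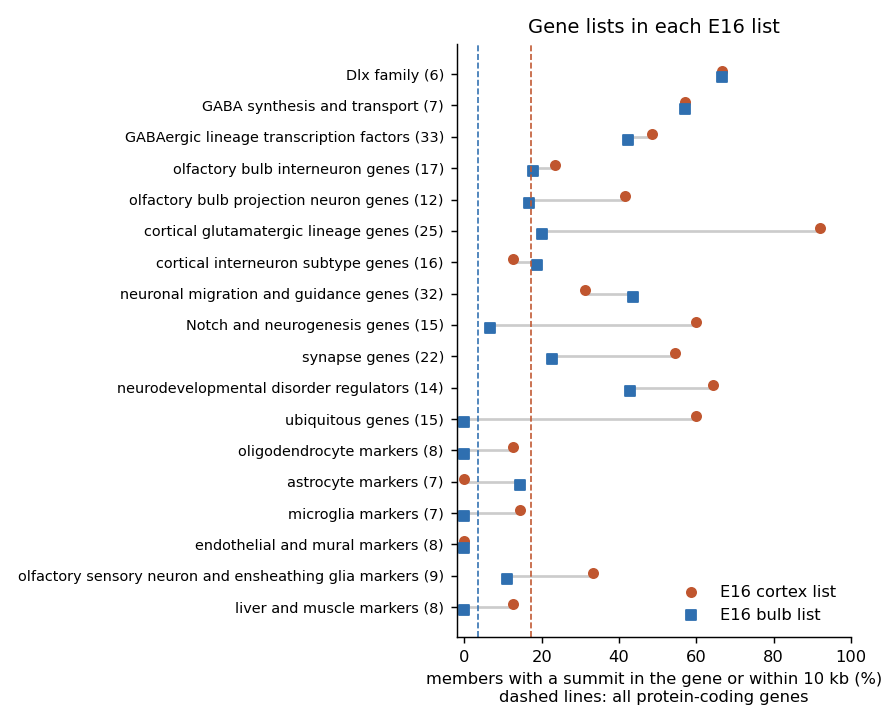
Percent of the members of each gene list (number in parentheses) with a summit in the gene or within 10 kb in the E16 cortex list (circles) and bulb list (squares), with all protein-coding genes as dashed lines at 17.2% and 3.63%. The percents sit far apart for cortical glutamatergic, Notch and ubiquitous genes and together for the Dlx family and GABA genes. Each percent is to be read against its own dashed line, because the lines differ. The cortical glutamatergic genes are above both lines, at 92% and 20%.

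Genes of migration and guidance were met more by the bulb list than by the cortex list, 14 (43.75%) against 10 (31.25%) of 32 members. Over all protein-coding genes the shares were 3.63% in the bulb list and 17.2% in the cortex list. The members had a median length of 152 kb, that of all genes being 17.3 kb, and the part of length in these counts was not tested. The basal ganglia list met 28 of the 32, against 26.7% of all protein-coding genes. Nrp1 (5.86 in the cortex and 3.21 in the bulb), a semaphorin receptor gene, Plxna2 (5.43 and 5.51), Slit1 (4.68 and 5.97) and Epha4 (18.8 and 4.76) had both, Slit1 with a shared region. The bulb list alone met Erbb4, the neuregulin receptor gene of interneurons (11.6), Efna5 (7.38) and Epha5 (6.67) as its highest, and Robo1, Robo2, Slit3, Nrg1, Nrg3, Plxna4 and Unc5c besides. The cortex list alone met Sema6c (43.1), Efnb2 (13.8) and Dclk1 (6.08) as its highest. Cxcl14, the chemokine gene the series is named for, had no region within 10 kb in any of the 5 lists. The nearest cortex summit was 57.5 kb away (fold 3.91) and the nearest bulb summit 305 kb away (fold 4.76).

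Genes typical of the olfactory bulb were met by both lists in small numbers. The shares are to be read against all protein-coding genes, 17.2% in the cortex list and 3.63% in the bulb list. Of 17 genes of bulb interneurons, 4 had a cortex summit (23.5%) and 3 a bulb summit (17.6%). The bulb list alone met Scgn, a calcium-binding protein gene (6.14), and Th, the dopamine-synthesis gene of periglomerular cells (5.93), the cortex list alone Pax6 (17.98), Sp8 (9.69) and Nos1 (6.29), and both met Meis2. Of 12 genes of bulb projection neurons, 5 (41.7%) had a cortex summit (Tbr1, Slc17a7, Eomes, Slc17a6 and Nrp1). A bulb summit was found for 2 (16.7%), Tbx21 and Nrp1. Of 16 genes of cortical interneuron subtypes, 2 had a cortex summit (12.5%) and 3 a bulb summit (18.75%). Pnoc, an opioid-like peptide gene, had a shared region (5.00 and 3.93). Nos1 was in the cortex alone and Erbb4 and Htr3a (6.14) in the bulb alone.

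Of 22 synapse genes, 12 had a cortex summit (54.5%) and 5 a bulb summit (22.7%). The shares of all protein-coding genes were 17.2% and 3.63%. The synapse genes had a median length of 278 kb and the regulators below 150 kb, that of all genes being 17.3 kb. The part of length in these counts was not tested. Nrxn3, a neurexin gene, had 2 shared regions (4.77 in the cortex and 5.19 in the bulb, and 4.49 and 4.26) and Grip1 separate regions (4.56 and 12.3). The cortex list alone met Nrxn2 (36.3), Shank1 (20.4) and Shank3 (14.0) as its highest, and the bulb list alone Il1rapl1 (8.80) and Cntnap2 (4.70) among its 3. Among 14 regulators linked to neurodevelopmental disorders, 9 had a cortex summit (64.3%) and 6 a bulb summit (42.9%). A shared region lay in Auts2, Arid1b (5.85 in the cortex and 6.55 in the bulb), Tcf4, Zeb2 and Foxp1. The cortex alone met Bcl11a (21.2) and Mef2c (9.32) as its highest, and the bulb alone Tbl1xr1 (4.91).

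Markers of other cell types are to be read against the 17.2% of all protein-coding genes in the cortex list and the 3.63% in the bulb list. Oligodendrocyte markers had 1 of 8 in the cortex (Sox10, 7.16) and 0 in the bulb, astrocyte markers 0 and 1 of 7 (Slc1a3, 3.82), microglia markers 1 (Aif1, 4.78) and 0 of 7, and endothelial and mural markers 0 of 8 in both. Of 9 markers of olfactory sensory neurons and ensheathing glia, 3 (33.3%) had a cortex summit (Gng8, 17.98, Ano2, 7.30, and Sox10) and 1 (11.1%) a bulb summit (Adcy3, 5.76), and Omp had none. Of 8 liver and muscle markers, Ckm had cortex summits up to 4.35 and none had a bulb summit. Occupancy near a marker does not measure the presence of its cell type.

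MicroRNA genes were met by the cortex list alone. Of 1005 RefSeq hairpins 65 (6.47%) lay in a cortex region and none in a bulb region (0%), which allows up to 0.299%, and 64 of the 65 were in cortex-only regions. The mature strands are shown for the families with the most hairpins covered and for let-7, RefSeq letters 5′ to 3′ with the seed, bases 2 to 8, in capitals.
miR-9-5p: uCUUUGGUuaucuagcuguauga
miR-9-3p: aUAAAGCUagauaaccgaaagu
miR-17-5p: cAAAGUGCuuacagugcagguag
miR-20a-5p: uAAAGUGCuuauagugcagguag
miR-93-5p: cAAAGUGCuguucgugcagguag
miR-106b-5p: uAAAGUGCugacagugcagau
miR-25-3p: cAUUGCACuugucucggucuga
miR-92a-3p: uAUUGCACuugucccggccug
miR-92b-3p: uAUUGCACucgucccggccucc
let-7b-5p: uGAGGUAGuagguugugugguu
let-7c-5p: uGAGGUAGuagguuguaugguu

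All 3 hairpins of miR-9, a microRNA abundant in neural progenitors, were covered: Mir9-3 (fold 63.0, a region of 27627 bp), Mir9-1 (24.8, 23006 bp) and Mir9-2 (23.2, 8381 bp), with basal ganglia folds of 46.8, 31.0 and 34.8. Each fold is that of the region's summit and not of the hairpin. The cortex summit lay 10.3 kb from Mir9-3, 0.424 kb from Mir9-1 and 0.852 kb from Mir9-2. The seed AAAGUGC was carried by 4 covered hairpins, of miR-17 and miR-20a in 1 region (8.24) and of miR-93 and miR-106b in another (10.2). The seed AUUGCAC was carried by miR-25, in the region of miR-93, by miR-92a, in the region of miR-17, and by miR-92b (11.0, with the summit 3.19 kb away). The let-7b and let-7c-2 hairpins, with the seed GAGGUAG, shared 1 region (19.4), whose summit lay 4.59 and 3.88 kb from them. A region can cover several hairpins, and the 65 lay in 49 regions. Mir7-2 was the hairpin in a shared cortex region (8.04), and the bulb region that met it did not reach the hairpin. The small nuclear RNA genes showed the opposite: 29 bulb-only regions lay within 1 kb of one, 2 cortex-only regions and no shared one. The class is that of RefSeq, which puts the U3 genes Rnu3a and Rnu3b1 to Rnu3b4 in it. They included the 4th region of the bulb list, near Eapp, and all 6 bulb-only regions of Tex14, the highest with a fold of 10.2 and not in the basal ganglia list, and at P3 the bulb list held 26 of the 29 and the cortex list 28. Such genes have many near-identical copies, so their reads cannot be placed with certainty. Without these regions the bulb-only summits within 1 kb of a gene boundary fell from 11.0% to 9.23%, and the shared count did not change.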

How the data were processed

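Dlx2 ChIP-seq was done on 5 mouse brain samples with an input sample for each, and the inputs were not analysed here. Reads were single-end, and Trimmomatic, Bowtie2, SAMtools, MACS2 and the mm10 build are named in the submitters' processing notes, without versions. Immunoprecipitation used an antibody to Dlx2 beside rabbit IgG reactions, and chromatin was sonicated, per the labels' protocols. The sources used here do not give the peak calling threshold, the read depth or the control used in calling. The deposited lists give for each region a fold ratio at the summit, −log10 p and −log10 q values, and an integer score, each made by the authors from 1 library. Folds and ranks are those of each list. Ranks of the E16 lists, which differ in length, were summed only to choose which shared pairs to name.

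Regions on chromosomes 1 to 19 and X were kept. Lists were compared by overlap of at least 1 bp, in Python 3.11.15 with pandas 2.3.3, numpy 2.4.6 and SciPy 1.17.1, and drawn with matplotlib 3.10.9. Regions were ranked by −log10 q. Genes, promoters and hairpins came from RefSeq (GRCm38.p6). The gene table gives no strand or exons, so distances are to the nearer gene boundary, exons and introns were not separated, and start and end were told apart only for the 17274 genes with a promoter window on 1 strand. A gene counted as met when a summit lay in its body or within 10 kb. Genes whose windows overlap share summits. The scripts were tested on simulated lists.

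Genes were named by rule: Cxcl14 and the Dlx genes, the 15 highest regions or pairs of each class, the 10 genes with most regions, the 5 highest regions in and missing from the basal ganglia list, and in each of 18 function lists the genes met by both E16 lists and the 3 highest met by 1. Other list members are named to account for the list. Some genes that these rules name are not reported here. The comparison, the members and the lists were chosen with earlier results of these data known. Alternatives changed the overlap, the −log10 q minimum, the length of the cortex list, region width, gene types and the gene window.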

Additional observations from a re-analysis of the deposited data

Results flagged for a closer look

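On chromosome Y and unplaced sequence, which the comparison leaves out, the E16 cortex list held 26 regions, 25 of them on Y. No level is known that such a count should have. The folds on Y ran from 2.58 to 24.4 with a median of 5.48. The E16 bulb list held 1 region, on Y (3.27). The basal ganglia list held 27 on Y, with a median fold of 3.69, and 36 on other sequence left out. The P3 bulb list held 1 on Y (3.52) and 1 elsewhere, and the P3 cortex list 1 on Y (4.81) and 22 elsewhere. The sex of the animals is not given in the sources used here, and the part of the list length in these counts was not tested.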

How the results depend on the processing

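With 1 library per tissue no replicate could be left out and no paired analysis was possible, because each group has 1 sample. Of 93 values recomputed under 9 settings, 65 moved by less than their counting interval or by less than 1.5 times for a count, and 28 moved further. With the cortex list shortened to the length of the bulb list, the shared part was 1.92% of either list, 34.4% of the pairs lay within 100 bp, 100% of the shared regions were in the basal ganglia list and 21.9% near a gene boundary. In the same setting 87.1% of the cortex-only regions were in the basal ganglia list and 25.4% near a boundary, 134 genes were met by both lists and 1653 by the cortex alone, and of the list genes 18 were met by both, 45 by the cortex alone and 40 by the bulb alone. With summits within 200 bp the shared part was 7.09% of the bulb list and 1.87% of the cortex list, 66.9% of the pairs lay within 100 bp and 5.93% near a boundary. With a −log10 q of at least 5, 100% of the shared and 64.0% of the cortex-only regions were in the basal ganglia list. Without regions over 1 kb the cortex-only shares were 51.1% in the basal ganglia list and 20.9% near a boundary. With protein-coding genes only, the shares near a boundary were 2.84% (shared), 16.7% (cortex-only) and 5.64% (bulb-only). With the gene body alone, the cortex alone met 2255 genes. With 50 kb around it, both lists met 689 genes, the cortex alone 5599 and the bulb alone 760. Without regions near small nuclear RNA genes, a setting chosen after seeing the data, 9.23% of bulb-only summits were near a boundary. The cause of these shifts was not tested beyond what each setting leaves out. Without a known depth, absence from a list may mean only that the library could not show a region.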

Other observations

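The highest regions found in 1 E16 list and in none of the other 4 lists were read after their values were seen. In the cortex these included Emx1, a region 368 kb outside Arid1b, 2 regions of Nfix (15.3 and 13.0), Rbbp6 (15.4), Dpp9 (14.3) and Slc17a7 (14.3). In the bulb they included regions 177 kb outside Grik3, a kainate receptor gene (9.20), in Rbms1 (8.19), 145 kb outside Pfn2 (8.05) and 153 kb outside Otx2, a homeobox gene of the anterior brain (7.57). Genes that RefSeq classes as small nucleolar RNA lay within 1 kb of 53 cortex-only regions (0.860%) and of 1 bulb-only region. The bulb-only regions at U3 genes are not in this count, because RefSeq classes those genes as small nuclear RNA.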
